A study of Mus musculus with 3 samples.

Results

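The 34 genes described here encode collagens, matrix glycoproteins, proteoglycans and matrix crosslinking enzymes. They were taken by name from the 31053 genes of a single-cell RNA sequencing study of the mouse anorectal junction, where colon meets anal skin. The study compared C57Bl/6 mice, bought at 6 weeks of age: untreated mice (day 0), and mice that drank 3% dextran sulfate sodium (DSS), which damages the colon epithelium, for 6 days and were taken at day 7 or day 42. The distal colon and anus of 5 mice were pooled for each day and gave 1 library, so the days have no replicate, and every comparison between days below is a comparison of 2 libraries with no test. Intervals are 95% and cover counting error only, not the differences between mice. Trypsin-EDTA for 20 min was the only digestion the labels name, and dying cells were removed by Annexin V selection, so the cells measured are those that this treatment frees and keeps. What share of the tissue's fibroblasts that is was not tested.

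Fibrillar collagens (types I, III and V) are rods of wound chains that give connective tissue its tensile strength, and the FACIT collagens, such as types XII, XIV and XVI, sit on their surface. Types IV, XV and XVIII with nidogen belong to basement membranes, the sheets under epithelium and around vessels, and type VII forms the fibrils that anchor the squamous epithelium to the tissue below it. Fibroblasts are known as the main source of the fibrillar kind, vessels and epithelia make basement membrane components of their own, and lysyl oxidases crosslink collagen and elastin outside the cell.

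The libraries held 11037, 14376 and 11667 cells at days 0, 7 and 42. The authors' cluster 10, the only one they named fibroblasts, held 1436, 316 and 222 of them (13.0%, 2.20% and 1.90% of the cells), with 6536325, 1829793 and 685266 unique molecular identifiers (UMIs, 1 for each captured molecule) and a median of 4366, 5015 and 2645.5 UMIs per cell. The label was checked on 8 fibroblast markers that are not among the 34 genes: all 8 were detected on each day, and Pdgfra stood at 511, 507 and 479 counts per 1000000 UMIs (CPM), but the summed list stood at 14489, 5404 and 7791 CPM. Markers of other cells in the same barcodes also moved between the days. The keratinocyte list summed to 1118, 1732 and 4299 CPM, the immune list to 17.3, 2776 and 444 CPM, the smooth muscle and pericyte list to 433, 446 and 1169 CPM, and 10 genes known to respond to dissociation to 9622, 4557 and 3048 CPM. The part that these play in the differences below was not tested, except where values without such cells are given. The 3 libraries shared between 40 and 55 cell barcodes in pairs, and 0 of these were fibroblasts in both.

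Most of the 34 genes were highest in fibroblasts on every day. Among cell types with at least 50 cells in a library (11, 10 and 9 types), fibroblasts had the highest CPM for 25 of the 34 genes at day 0, 29 at day 7 and 31 at day 42. For 25 genes this held on all 3 days. Over all genes the share highest in fibroblasts was 6.81%, 13.5% and 14.8%. The other 9 genes were highest elsewhere on at least 1 day. Col15a1 was highest in endothelial cells in each library, Col4a1 and Col4a2 in endothelial cells at days 0 and 7, and Col18a1 in lymphatics at days 0 and 42 and in endothelial cells at day 7. Thbs1, which encodes thrombospondin 1, was highest in secretory colonocytes, then macrophages, then neutrophils, and Col7a1 at day 0 in cells the authors left as unknown. At day 0 the 296 muscle-like cells, whose 8 smooth muscle and pericyte markers were all detected, were ahead of fibroblasts for Ogn at 2624 (2528 to 2723) CPM, for Lox at 136 (114 to 159) CPM and for Nid1 at 348 (314 to 385) CPM. Only 41 and 24 muscle-like cells were caught at days 7 and 42, under the minimum. With types of at least 20 cells admitted, the counts highest in fibroblasts were 25, 23 and 28.

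**Figure D1:**
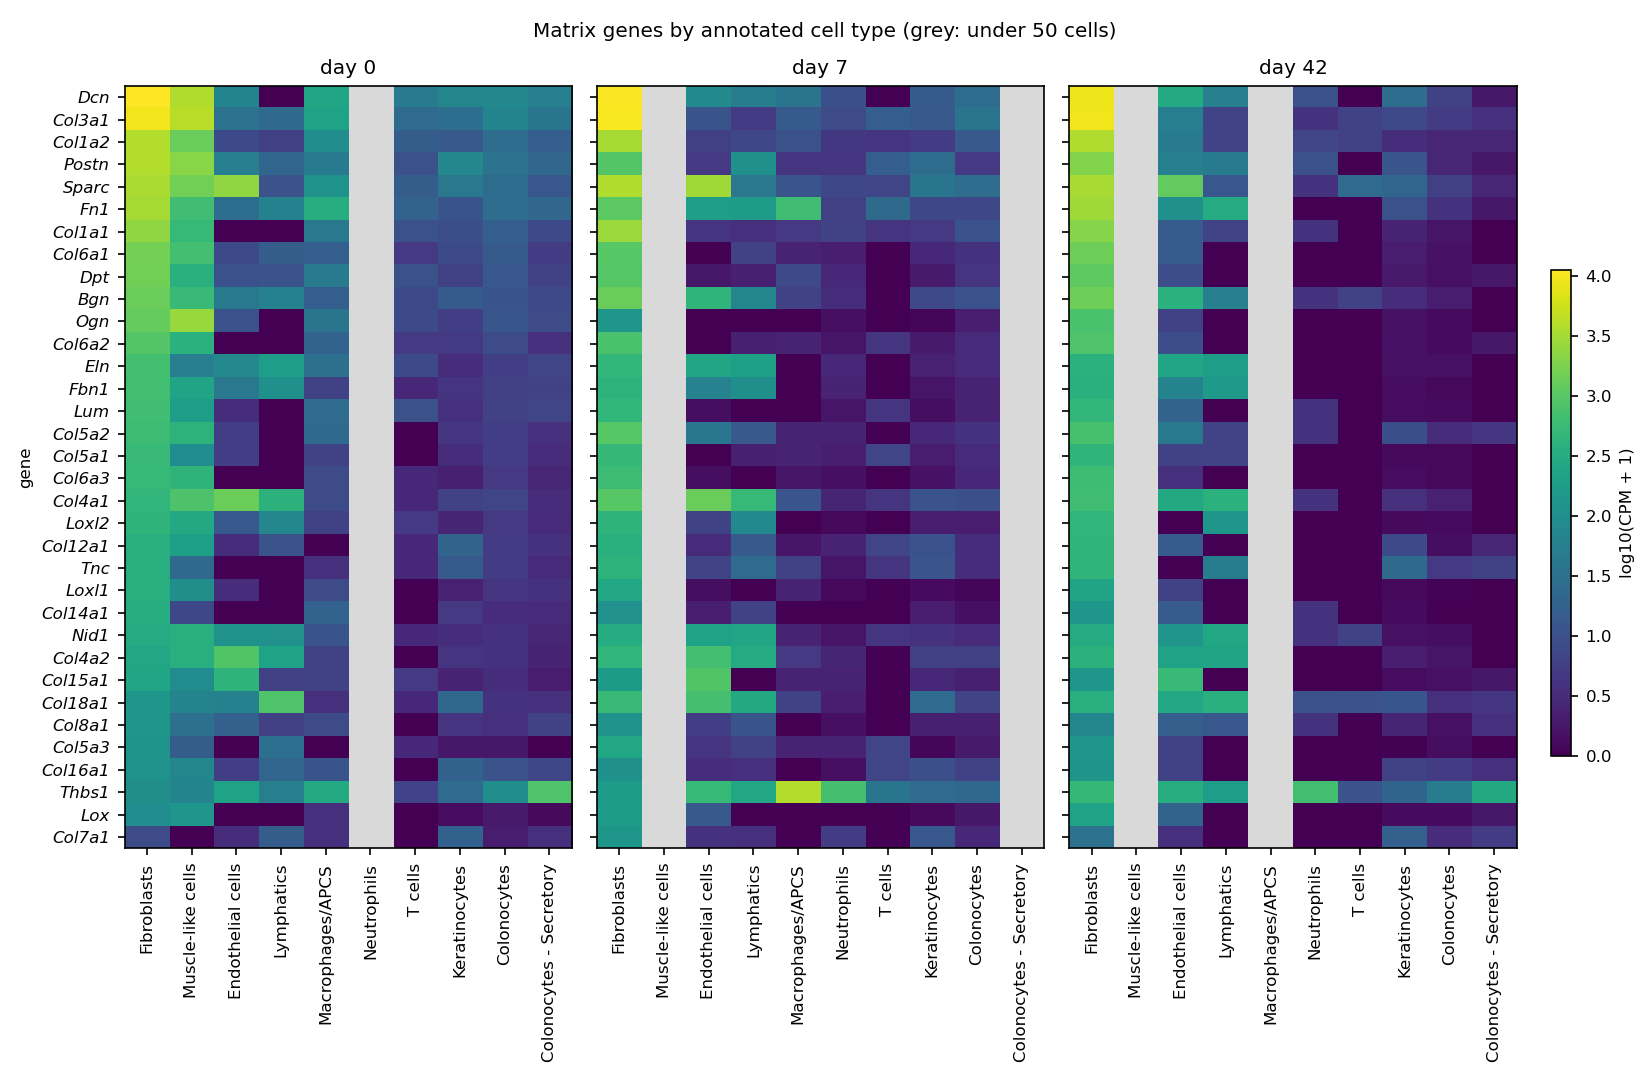
Level of each of the 34 genes, as log10 of CPM plus 1 and in order of the day 0 fibroblast level, in 10 annotated cell types on the 3 days, with grey for types under 50 cells. The fibroblast column is the brightest for 25, 29 and 31 genes among all types compared, and Thbs1, Col4a1, Col15a1 and Col18a1 are bright outside it.

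Within fibroblasts the 34 genes together took 5.11%, 4.50% and 4.53% of all UMIs at days 0, 7 and 42. Levels are CPM of summed UMIs, not divided by gene length, since a 3' library counts 1 end of each molecule. They are compared between days or cell types and not between genes. Differences between days are log2 ratios of CPM with 10 CPM added to both, taken where a gene reached 20 CPM in 1 of the libraries or both, and a log2 ratio of at least 1 or at most -1 is called past 2-fold. All 34 genes reached that floor in each comparison. At day 7 against day 0, 3 of the 34 were past 2-fold higher (3.6% of the 7176 genes compared) and 4 were past 2-fold lower (3.26% of all genes). At day 42 against day 0, 4 were past 2-fold higher (2.21% of 7256 genes) and 1 lower (1.43%), and at day 42 against day 7, 4 were higher (2.52% of 7251 genes) and 1 lower (2.92%). The median log2 ratio of the 34 genes was -0.03, -0.08 and 0.00038 in these comparisons, beside -0.05, 0.02 and 0.06 over all genes. For the median gene of the 34, the interval of the log2 ratio reached 0.11, 0.17 and 0.19 to either side. Some ratios are also given without the 5% of fibroblasts in each library with most UMIs of the gene (72, 16 and 12 cells), an alternative chosen after seeing the data. Leaving out a fixed 10 cells instead removes 0.696%, 3.16% and 4.50% of the fibroblasts at days 0, 7 and 42, so it lowers the later days more by construction. Both ways also moved all genes: at day 42 against day 0 the median over all genes was -0.19 without the richest 5% and -0.46 without 10 cells, with 8.97% and 16.6% of all genes past 2-fold lower. At day 7 against day 0 the median was -0.02 and -0.25, with 4.31% and 6.74% lower. Values without the richest cells are to be read against these shifts. Equal weight to sub-clusters means the mean over those fibroblast sub-clusters, described below, with 20 cells or more in both libraries. These include sub-clusters led by keratinocyte or colonocyte genes.

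**Figure D2:**
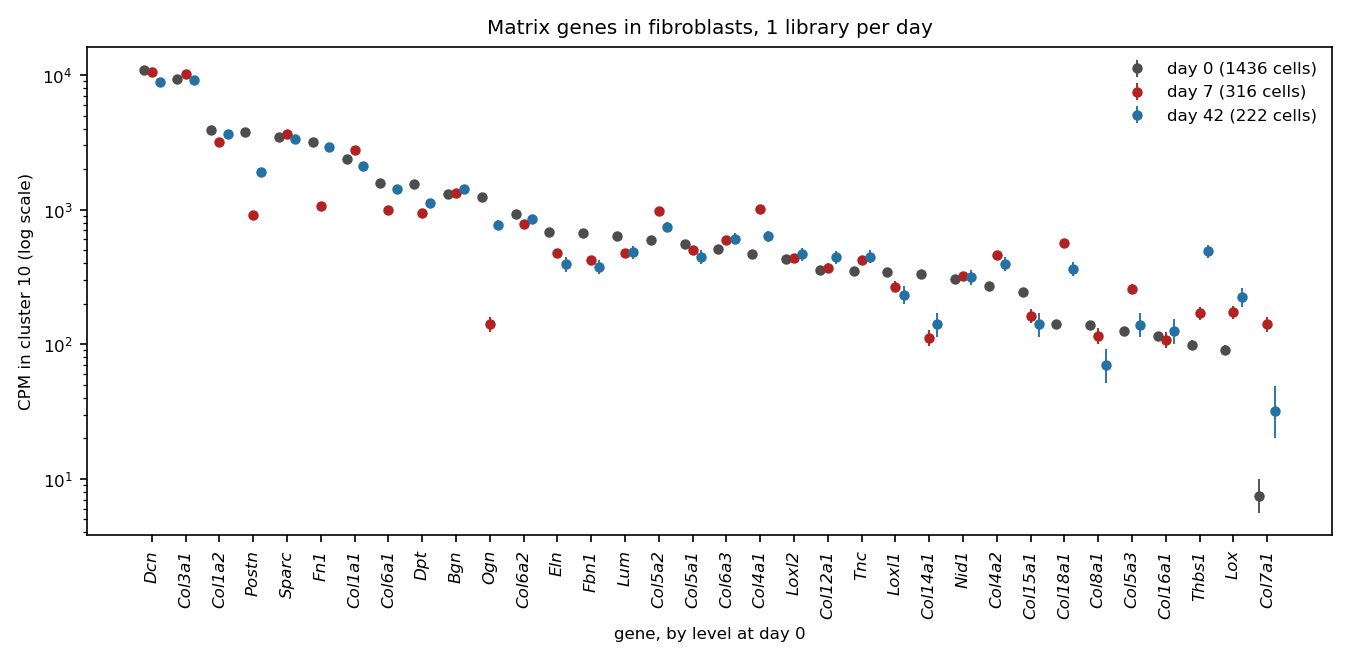
CPM of each of the 34 genes in fibroblasts on a log axis, genes in order of the day 0 level, with 1 point per library and 95% Poisson intervals. Ogn, Postn, Fn1 and Col14a1 sit lowest at day 7, and Col7a1, Col18a1 and Thbs1 sit above their day 0 points on both later days.

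The bulk fibrillar collagens differed little between the libraries. Col3a1, the chain of type III collagen, stood at 9349.9 (9276 to 9424), 10257 (10111 to 10405) and 9183 (8958 to 9413) CPM at days 0, 7 and 42. Col1a1 and Col1a2, the chains of type I collagen, stood at 2394, 2757 and 2098 CPM and at 3891, 3166 and 3634 CPM. For these chains the log2 ratios against day 0 lay between -0.30 and 0.20, all far inside 2-fold. The Col1a1 and Col3a1 values were highest at day 7 and the Col1a2 value was lowest there. Type V collagen sets the diameter of type I fibrils. Its chain Col5a1 stood at 555, 500.1 and 445 CPM and its chain Col5a2 at 598, 977 and 746 CPM, highest at day 7. The minor chain Col5a3 stood at 126 (117 to 134), 257 (234 to 281) and 139 (112 to 169) CPM, and its day 7 log2 ratio of 0.98 was past 2-fold in 4 of the 11 alternatives, with 1.07 the highest, and was 0.29 with equal weight to sub-clusters.

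Genes whose chains assemble together did not keep a fixed ratio of UMIs between days, which is not a ratio of the chains themselves. The ratio of Col1a1 to Col1a2 in fibroblasts was 0.615 (0.603 to 0.628) at day 0, 0.871 (0.838 to 0.904) at day 7 and 0.578 (0.541 to 0.616) at day 42. The ratio of Col5a1 to Col5a2 was 0.929 (0.888 to 0.972), 0.512 (0.472 to 0.554) and 0.597 (0.516 to 0.689). Type VI collagen forms beaded filaments around cells from 3 chains. The ratio of Col6a1 to Col6a2 was 1.71 (1.65 to 1.76), 1.26 (1.18 to 1.35) and 1.67 (1.51 to 1.86), so the day 7 library stood apart from the others for types I and VI, and the day 0 library for type V. Of these chains Col6a1 stood at 1582, 989 and 1418 CPM, Col6a2 at 927, 784 and 848 CPM and Col6a3 at 514, 590.2 and 609 CPM, and the lowest log2 ratio was -0.67, for Col6a1 at day 7.

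Of the genes of basement membrane and anchoring fibrils, Col4a1, Col18a1 and Col7a1 were past 2-fold higher at day 7. Col4a1 (chr8:11198423-11312826, GRCm38, minus strand) and Col4a2 (chr8:11312805-11449287, plus strand) encode the common chains of the type IV network, and their annotated starts face away from each other with an overlap of 22 bases. In fibroblasts Col4a1 stood at 466 (449 to 482) CPM at day 0, 1012 (966 to 1059) at day 7 and 633 (575 to 696) at day 42. The day 7 level was 2.17 times (2.05 to 2.3) that of day 0, a log2 ratio of 1.10. Without the 5% of cells with most Col4a1 UMIs that log2 ratio was 0.996, and without the 10 richest cells 0.85, both under 2-fold. Col4a2 stood at 270.0, 460.2 and 397 CPM, a log2 ratio of 0.75 at day 7 and of 0.54 at day 42. Equal weight to sub-clusters took the day 7 value to 1.17, past 2-fold. Nid1, which links laminin to type IV collagen, stood at 304, 319 and 314 CPM, with log2 ratios of 0.06 and 0.04 against day 0.

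Col18a1 (chr10:77052178-77166548, minus strand) encodes the proteoglycan collagen whose end is released as endostatin. It stood at 140.3 (131 to 149.7) CPM at day 0, 561 (527 to 597) at day 7 and 363 (319.6 to 411) at day 42. No interval overlaps another: day 7 was 4.0 times (3.66 to 4.38) and day 42 2.59 times (2.24 to 2.98) the day 0 level. These log2 ratios, 1.93 and 1.31, stayed past 2-fold under each of the 11 alternative settings. After each cell was thinned to 1000 UMIs, 12% of the 1311 deep enough cells had a Col18a1 UMI at day 0, 34.6% of 283 at day 7 and 29.1% of 203 at day 42. The shares before thinning were 39.2%, 60.8% and 49.1%. In T cells, which should lack matrix genes and whose median depth was 2064, 2260 and 1393 UMIs, the thinned share was at most 1.11% for Col18a1 and at most 3.70% for any of the 34 genes. The related Col15a1 stood at 246, 162 and 140.1 CPM, lower on both later days, with log2 ratios of -0.58 and -0.77, the latter -1.09 without the 5% of cells richest in Col15a1.

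Col7a1 (chr9:108953586-108984875, plus strand) had the highest day 7 log2 ratio of the 34 genes, 3.10, from few molecules in few cells. It stood at 7.5 (5.55 to 9.91) CPM at day 0 (49 UMIs), 140.5 (124 to 159) at day 7 (257 UMIs) and 32.1 (20.1 to 48.6) at day 42 (22 UMIs). The 10 cells with most Col7a1 UMIs held 53.3% of them at day 7 and 95.5% at day 42. Against day 0 the day 42 log2 ratio was 1.27, and -0.42 without those cells. Without the richest 5% of each library it was 0, with 0 Col7a1 UMIs left on either day. The day 7 ratio lay between 2.32 and 4.06 under the alternatives. Keratinocytes of the same day 7 library, a known source of type VII collagen, stood at 11.5 CPM, below the fibroblasts. The 250 bases before the RefSeq start of Col7a1 (chr9:108953336-108953585, GRCm38.p6, plus strand) are shown because this gene differed most at day 7, with a CCAAT match (read as ATTGG) and a GC box match in capitals.
Col7a1: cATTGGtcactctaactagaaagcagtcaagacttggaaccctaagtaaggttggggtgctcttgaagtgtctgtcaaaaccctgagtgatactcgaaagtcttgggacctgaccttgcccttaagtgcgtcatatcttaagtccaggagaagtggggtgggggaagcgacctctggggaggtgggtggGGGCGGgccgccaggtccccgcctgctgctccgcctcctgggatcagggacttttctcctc
GC box matches (GGGCGG, either strand) were in 32.7% of all 32851 mouse windows of that length and CCAAT matches in 33.8%.

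The FACIT and network collagens went different ways. Col14a1 (chr15:55307750-55520803, plus strand), a fibril-associated collagen, stood at 331 (317 to 345) CPM at day 0, 111 (96.7 to 128) at day 7 and 140.1 (113 to 171) at day 42. Both later days were below day 0 with no overlap. Day 7 was 0.337 times (0.291 to 0.389) the day 0 level, a log2 ratio of -1.49 that stayed past 2-fold under all 11 alternatives. The day 42 log2 ratio of -1.18 was past 2-fold under 7 of the 11 and was -0.46 with equal weight to sub-clusters. Col12a1 stood at 355, 370.0 and 442 CPM and Col16a1 at 115, 108 and 125 CPM, both with log2 ratios of at most 0.31 against day 0. Col8a1, a short-chain network collagen of vessels, stood at 139.5, 115 and 70.0 CPM, with a log2 ratio of -0.90 at day 42. The 10 cells with most Col8a1 UMIs held 66.7% of them at day 42. Without the 5% of cells richest in Col8a1 that log2 ratio was -1.80 and the day 7 one, -0.25, was -1.43. With equal weight to sub-clusters the day 7 value had the other sign, at 0.66.

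Among the glycoproteins, Fn1 and Postn were far lower at day 7 than on the other days. Fn1 (chr1:71585520-71653200, minus strand) encodes fibronectin, on which cells and new collagen assemble. It stood at 3161 (3118 to 3205) CPM at day 0, 1067 (1021 to 1116) at day 7 and 2943 (2816 to 3075) at day 42, low at day 7 alone. Day 7 was 0.338 times (0.322 to 0.354) the day 0 level, a log2 ratio of -1.56, and day 42 was 2.76 times (2.59 to 2.94) the day 7 level, a log2 ratio of 1.45. With equal weight to sub-clusters these log2 ratios were -0.97 and 0.53, both under 2-fold. Postn (chr3:54361109-54391037, plus strand) encodes periostin, a matricellular protein that promotes collagen crosslinking. It stood at 3801 (3754 to 3848) CPM at day 0, 915 (872 to 960.3) at day 7 and 1915 (1812 to 2021) at day 42, so day 42 lay between the other days. The log2 ratios were -2.04 for day 7 and -0.99 for day 42 against day 0, and 1.06 for day 42 against day 7. With equal weight to sub-clusters the first was -1.02 and the last 0.39. Without the 5% of cells richest in Postn the day 42 value against day 0 was -1.15, beside -0.99 with all cells.

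Thbs1 (chr2:118111876-118127133, plus strand), a matricellular protein that can activate latent TGF-beta, was highest at day 42 in fibroblasts. It stood at 98.8 (91.4 to 107) CPM at day 0, 170.0 (152 to 189.9) at day 7 and 489 (438 to 544) at day 42. Day 42 was 4.95 times (4.32 to 5.65) the day 0 level, a log2 ratio of 2.20. Equal weight to sub-clusters took it to 0.72 and turned day 42 against day 7 from 1.47 to -1.21. The 10 cells with most Thbs1 UMIs held 45.4% of them at day 42. Of the other glycoproteins, Tnc (tenascin C) stood at 349.9, 420.3 and 447 CPM and Sparc, a collagen-binding protein, at 3469.5, 3668 and 3334 CPM, with log2 ratios against day 0 of at most 0.34 in summed UMIs. The 10 cells with most Tnc UMIs held 50.1% of them at day 7. Its day 7 log2 ratio of 0.26 was -0.06 without the richest 5% of cells, and equal weight to sub-clusters gave 1.59 at day 7 and -0.53 at day 42. Fbn1 (fibrillin 1), of the elastic fibre, stood at 668, 419 and 376 CPM. Eln (elastin) stood at 679, 478 and 391 CPM, and the 10 cells with most Eln UMIs held 56% of them at day 42. The day 42 log2 ratio of Eln against day 0, -0.78, was -1.22 without the 5% of cells richest in Eln and 0.06 with equal weight to sub-clusters. For Fbn1 the same ratio was -0.81, and -0.88 without the 5% of cells richest in it.

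Of the small proteoglycans and related proteins among the 34 genes (Dcn, Bgn, Lum, Dpt and Ogn), Ogn passed 2-fold. Ogn (chr13:49608046-49624501, plus strand) encodes osteoglycin, a leucine-rich repeat protein of collagen-rich matrix. It stood at 1249.8 (1223 to 1277) CPM at day 0, 140.5 (124 to 159) at day 7 and 765 (701 to 833) at day 42, so the day 7 library was far below both others. Day 7 was 0.112 times (0.0989 to 0.127) the day 0 level, a log2 ratio of -3.07, the lowest of the 34 genes, and the range over the alternatives was -3.42 to -2.14. Day 42 against day 7 was 2.36 on the log2 scale, and 0.54 with equal weight to sub-clusters. Thinned to 1000 UMIs, 54.3% of fibroblasts had an Ogn UMI at day 0, 10.6% at day 7 and 39.9% at day 42. Before thinning the shares were 75%, 30.7% and 54.1%. Dcn (decorin) and Bgn (biglycan), which bind type I collagen and TGF-beta, stood at 10966, 10482 and 8935 CPM and at 1315, 1323 and 1426 CPM. Lum (lumican) stood at 638, 475 and 483 CPM and Dpt (dermatopontin), which binds decorin, at 1540.3, 946 and 1115 CPM. The lowest log2 ratio of these genes against day 0 was -0.70, for Dpt at day 7.

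The windows before the RefSeq starts of Ogn (chr13:49607765-49608014) and Postn (chr3:54360857-54361106), both GRCm38.p6 and plus strand, are shown because these genes had the lowest day 7 log2 ratios. Postn has a second RefSeq window, chr3:54359017-54359266, without a TATA box match, which is not shown. Capitals mark TATA box matches (TATAAA, either strand), of which the pair in Ogn overlaps in 4 letters.
Ogn: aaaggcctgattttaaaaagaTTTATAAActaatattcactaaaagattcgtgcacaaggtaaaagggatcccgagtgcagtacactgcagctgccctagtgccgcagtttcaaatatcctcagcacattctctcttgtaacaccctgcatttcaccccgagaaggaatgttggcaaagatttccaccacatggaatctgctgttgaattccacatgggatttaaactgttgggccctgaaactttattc
Postn: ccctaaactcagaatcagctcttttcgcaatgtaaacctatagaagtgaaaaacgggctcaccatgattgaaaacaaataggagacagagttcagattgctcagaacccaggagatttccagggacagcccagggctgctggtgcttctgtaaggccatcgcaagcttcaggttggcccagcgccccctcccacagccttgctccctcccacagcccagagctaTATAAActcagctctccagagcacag
The match in Postn lies 26 to 21 bases before that start and those in Ogn 229 to 222 bases before it. A TATA match was present in 4 of the 22 genes of the set with a RefSeq window and in 12.4% of all windows. An AP-1 match (TGANTCA) was in 1 of the 22, against 6.75% of all windows. GC box matches were in 13 of the 22 and CCAAT matches in 8, against 32.7% and 33.8% of all windows. A gene with more than 1 window was counted if any of them matched, so counts of genes and shares of windows are not the same measure. These matches describe the letters only.

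Of the crosslinking enzymes, Lox, which acts on collagen and elastin, was higher on both later days, and its relatives stayed inside 2-fold. Lox stood at 90.6 (83.4 to 98.2) CPM at day 0, 172 (154 to 192) at day 7 and 223 (189 to 262) at day 42, with no overlap between day 0 and the later days. The day 7 log2 ratio against day 0 was 0.86, and 0.22 with equal weight to sub-clusters. Day 42 was 2.47 times (2.05 to 2.95) the day 0 level, a log2 ratio of 1.21, which was 1.20 without the 5% of cells with most Lox UMIs and 0.69 without the 10 richest. Loxl1, which acts on elastic fibres, stood at 346, 268 and 232 CPM, lower on both later days, and Loxl2, which acts on type IV collagen, at 429, 437 and 464 CPM.

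**Figure D3:**
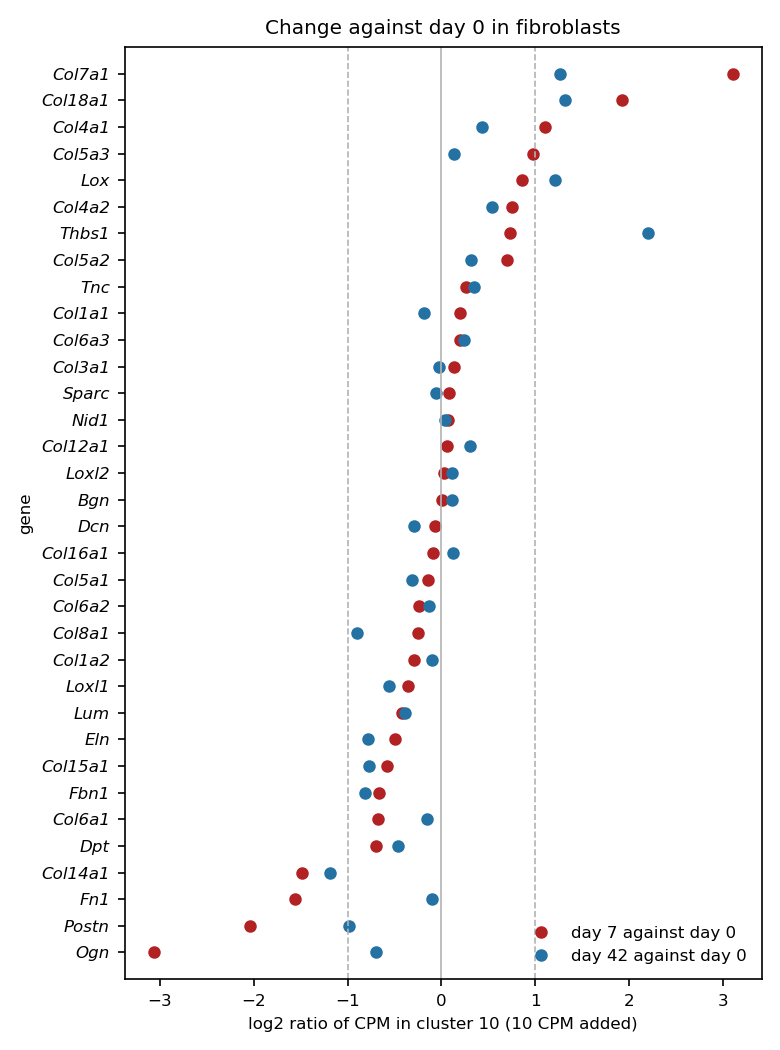
Log2 ratio of CPM in fibroblasts, with 10 CPM added, for day 7 and for day 42 against day 0, genes in order of the day 7 ratio, with dashed lines at 2-fold. Most points lie between the lines, Col7a1 and Ogn mark the ends at day 7, and Thbs1 has the highest ratio at day 42.

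Of 27 genes of enzymes and chaperones that mature collagen, 21 reached the floor at day 7 and at day 42 against day 0. Of these, 0 were past 2-fold higher (3.6% of all genes at day 7 and 2.21% at day 42) and 1 was lower on each day (3.26% and 1.43%), shares too near those of all genes to set the list apart. That gene was Pcolce2, an enhancer of procollagen processing, at 129, 45.4 and 49.6 CPM. The collagen chaperone Serpinh1 stood at 735, 744 and 752 CPM. In a list of 52 other matrix genes, 40 reached the floor at day 7, of which 4 were past 2-fold higher (3.6% of all genes) and 14 lower (3.26% of all genes), with a median log2 ratio of -0.28 beside -0.05 over all genes. At day 42, 3 of 37 were higher (2.21% of all genes) and 5 lower (1.43%), with a median of -0.32 beside 0.02. Those highest on both days were Spon1 (spondin 1) at 48.2, 346 and 249.5 CPM, Thbs4 (thrombospondin 4) at 3.21, 40.4 and 35 CPM and Mfap4, a microfibril protein, at 32.9, 145 and 99.2 CPM. Lowest at day 7 were Aspn (asporin) with a log2 ratio of -2.61, Ctgf, a matricellular growth factor, with -2.27, and Ltbp4, which stores latent TGF-beta, with -2.22. Lowest at day 42 were Mfap5, which is also among the 8 fibroblast markers, with -1.64, Ctgf with -1.42 and Aspn with -1.39. Of 12 listed genes of the TGF-beta pathway, 0 were past 2-fold in either direction on either day, too few genes to set against the same shares of all genes.

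The fibroblasts of the 3 libraries were not the same mix. Clustered again on variable genes that left out the 34 genes and the other matrix genes, they fell into 12 sub-clusters, which are given by number and leading genes and hold no cell type names. Sub-cluster 7, led by Mmp13, Mmp10, Mmp3, Rgs5 and Saa3, held 123 of the 316 day 7 cells (38.9%) and 4 and 5 cells at days 0 and 42. Sub-cluster 11, led by Wif1, Notum, Dio2, Stc1 and Cadps, held 39 of the 222 day 42 cells (17.6%) and 7 and 2 at days 0 and 7. Sub-clusters 2, 3, 4 and 5 held 260, 229, 235 and 184 cells at day 0 and 5, 6, 1 and 2 at day 7. Sub-cluster 2 was led by Hbb-bt, Ccl21a, Hbb-bs, Edil3 and Tmigd1, of which the first and the third are haemoglobin genes. Sub-cluster 4 was led by Gadd45g, Btg2, Zfp36, Fos and Sbno2, and its dissociation list stood at 20773 CPM, the highest of the 12. The part of this in the near absence of these cells at day 7 was not tested. Sub-clusters 6, 10 and 12 were led by keratinocyte, colonocyte and neutrophil genes, and sub-cluster 8, led by Malat1, Ogt, Kcnq1ot1, Stard9 and mt-Nd6, had a median of 981 UMIs and 31.0% mitochondrial UMIs per cell. Without sub-clusters 6, 10 and 12, an alternative chosen after seeing the data, 4 of the 34 genes were past 2-fold higher at day 7 against day 0 (3.59% of all genes in that setting) and 4 lower (3.46%). At day 42 against day 0, 4 were higher (1.9% of all genes) and 0 lower (1.44%), where Col14a1 no longer passed.

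The matrix genes, which had no part in the clustering, differed widely across these sub-clusters. Sub-cluster 1, led by Inmt, Ebf1, Ptgis, Has1 and C3, had Col14a1 at 1012 CPM, Eln at 1558 and Lum at 1376, and Tnc at 48.2. Sub-cluster 3, led by Emid1, Ccdc3, Ptprr, Procr and Agt, was the reverse, with Col14a1 at 8.71 CPM, Eln at 3.63 and Lum at 145, and Tnc at 1294. It also had Col6a1 at 3455 and Col6a3 at 1528 CPM. Sub-cluster 5, led by Tceal6, Igfbp3, Adamdec1, C1qtnf3 and Trbc1, had Ogn at 2505 CPM, Postn at 5876 and Fn1 at 5187. In sub-cluster 7, which is mostly of day 7, Ogn stood at 113 CPM, Postn at 1041, Fn1 at 1347 and Col14a1 at 54.5. The same cells had Col18a1 at 941 CPM, Col4a1 at 1458 and Col5a3 at 443. In sub-cluster 11, mostly of day 42, Thbs1 stood at 2127 CPM, Tnc at 1256, Col12a1 at 1213, Lox at 513 and Col7a1 at 239. Sub-cluster 9, led by Ctla2a, Sfrp4, Crabp1, Mfap4 and Edn3, had Dcn at 21715 CPM and Col1a1 at 5843. A sub-cluster found mostly in 1 library may be that library and not a kind of fibroblast.

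**Figure D4:**
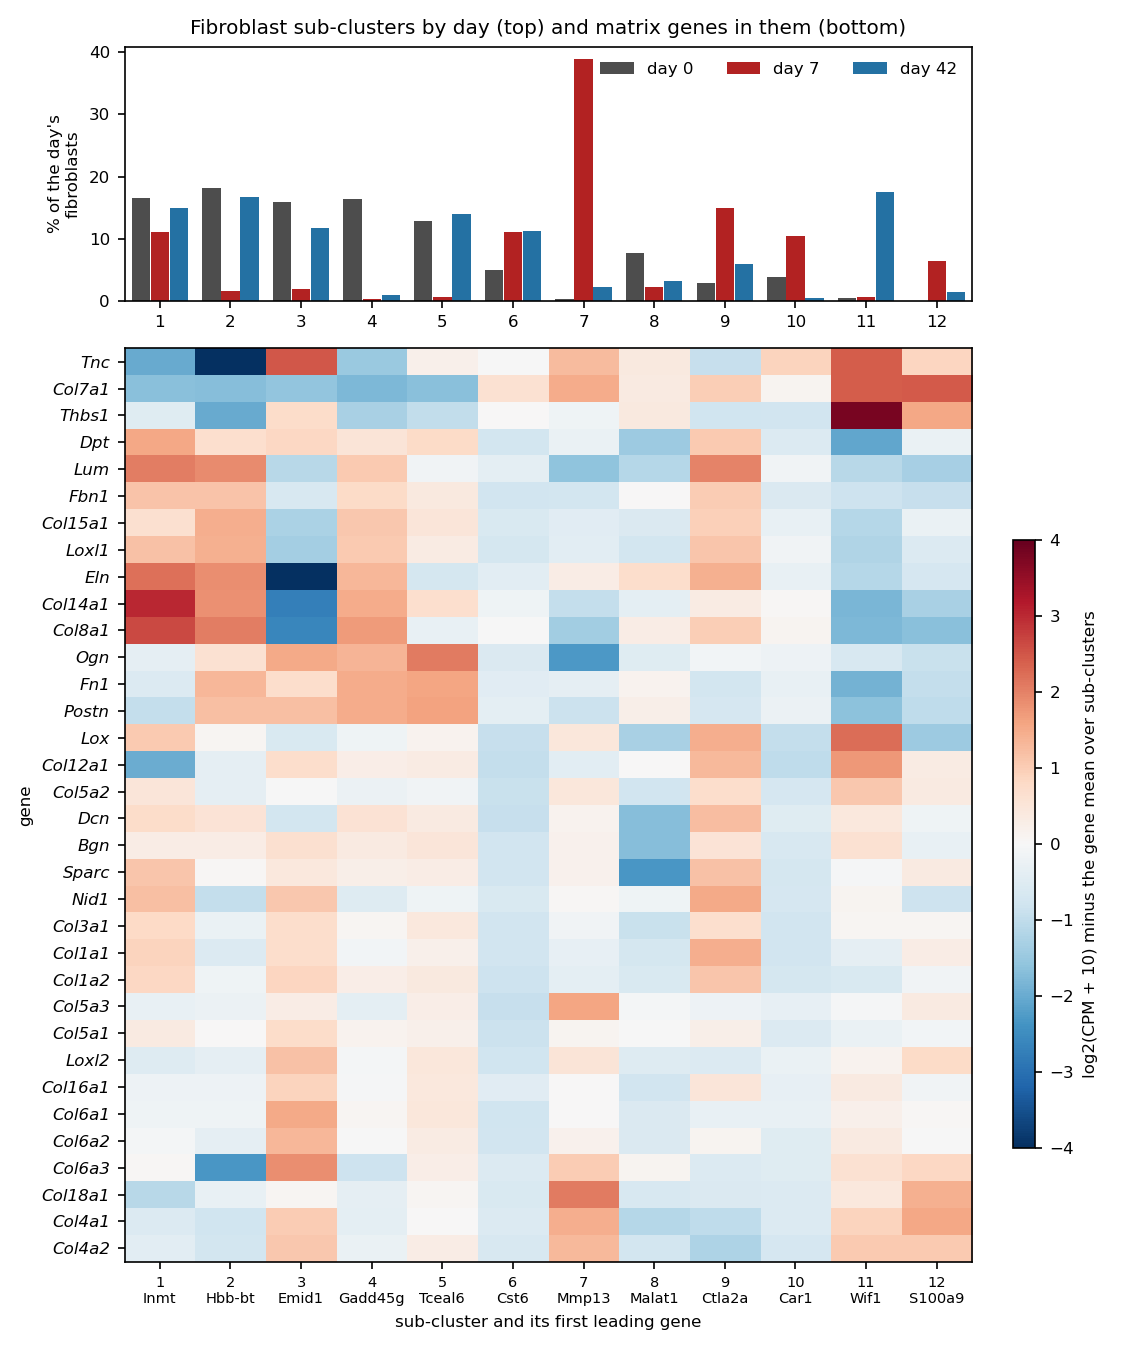
Top, the percentage of each day's fibroblasts in 12 sub-clusters. Bottom, log2 of CPM plus 10 for each of the 34 genes, minus the gene's mean over sub-clusters, with the first leading gene named, where Thbs1 stands out in sub-cluster 11, Col18a1 in sub-cluster 7, and Col14a1, Eln and Col8a1 are high in 1 and low in 3.

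Comparison inside a sub-cluster with enough cells on each day gave different pictures for different genes. Sub-cluster 1, with 238, 35 and 33 cells, kept Fn1 at 1160.2 (1088 to 1236), 1287 (1129 to 1462) and 1563 (1254 to 1926) CPM, with no low point at day 7 and with the day 42 interval above that of day 0. In sub-cluster 6 (led by keratinocyte genes) Fn1 was low at day 7, at 1480.3 (1402 to 1562), 675 (586 to 774) and 1284 (1128 to 1457) CPM. In sub-cluster 10 (led by colonocyte genes) it stood at 1825 (1674 to 1985) CPM at day 0 and 321 (217 to 459) at day 7. Other genes were lower at day 7 in sub-cluster 10 too, such as Col1a2 at 2392 and 525 CPM and Bgn at 841 and 375. Some were not, such as Col4a2 at 166 and 204 CPM. Postn in sub-cluster 1 stood at 1022, 784 and 906 CPM, and was low at day 7 in sub-cluster 6, at 1844, 636 and 955. It was past 2-fold lower at day 7 than at day 0 in sub-cluster 10 too. Col18a1 in sub-cluster 1 stood at 94.1 (74.3 to 118), 91.9 (53.6 to 147) and 107 (39.1 to 232) CPM, with overlapping intervals. Between days 0 and 7 it was past 2-fold higher in the other 3 sub-clusters with over 20 cells on both days, at 71.7 (55.2 to 91.5) and 271 (216 to 336) CPM in 6, 67.5 (33.7 to 121) and 182 (137 to 237) in 9, and 74.3 (46.6 to 113) and 364 (252 to 509) in 10. Col8a1 was past 2-fold higher at day 7 in sub-cluster 1, at 329 (291 to 371) and 746 (627 to 882) CPM, with 47 and 101 in 6 and 123 and 92.6 in 9, while in 10 it stood at 81.1 CPM at day 0 with 0 UMIs at day 7. Ogn in sub-cluster 1 stood at 502 (455 to 553), 276 (205 to 363) and 319.8 (189.5 to 505) CPM, lower at day 7 than at day 0 but by less than over all fibroblasts. In sub-cluster 6 Ogn stood at 527, 101 and 239 CPM. Col4a1 was higher at day 7 in sub-cluster 1 too, at 254 (221 to 291), 800.4 (677 to 940.3) and 338 (203 to 527) CPM. It was also higher at day 7 in 6 and 9, and near even in 10, at 358 and 354 CPM at days 0 and 7. Col3a1 was higher at day 7 in sub-cluster 1, at 12410.4, 23889 and 15668 CPM, and so was Col1a1, at 3510.0, 5571 and 4335 CPM. Both were past 2-fold higher at day 7 in sub-cluster 6 and past 2-fold lower in 10, where Col3a1 stood at 5836 and 2711 CPM and Col1a1 at 1497 and 632. In sub-cluster 9 Col3a1 stood at 12161 and 14614 CPM and Col1a1, lower at day 7, at 7144 and 5466. Lox in sub-cluster 1 was higher on both later days, at 139 (115 to 167), 514 (416 to 628) and 426 (273 to 634) CPM, which was not so in every sub-cluster. Eln in sub-cluster 1 was lower at day 7 and higher at day 42, at 1625 (1539 to 1715), 963 (826 to 1115) and 2540.3 (2141 to 2992) CPM. Tnc stood at 7.34 (2.69 to 16) and 243 (178 to 326) CPM at days 0 and 7 and had 0 UMIs at day 42, which allows up to 65.5 CPM by its interval.

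In sub-cluster 9, with 42 cells at day 0 and 47 at day 7, Ogn stood at 999.6 (852 to 1165) and 208 (160.2 to 267) CPM and Fn1 at 1613 (1424 to 1820.0) and 804 (706 to 912), both lower at day 7, while Postn stood at 859 (722 to 1013) and 1274 (1149.8 to 1408), higher at day 7. Col7a1 stood at 12.3 (1.49 to 44.3) CPM at day 0 and 129 (91.8 to 176) at day 7 in sub-cluster 9, at 16.8 (9.4 to 27.7) and 228 (178 to 288) in 6, and at 3.38 and 161 in 10. In sub-cluster 1 it was near 0 on both days, at 4.89 (1.33 to 12.5) and 5.41 (0.137 to 30.1) CPM from 4 UMIs and 1 UMI. Lox in sub-cluster 9 was lower at day 7, at 503 (399.9 to 624) and 175 (131 to 229) CPM. Between days 0 and 42, sub-clusters 1, 2, 3, 5 and 6 each had over 20 cells. Col18a1 stood at 129.7 and 586 CPM in sub-cluster 2, at 191 and 485 in 3, at 185 and 646 in 5 and at 71.7 and 234 in 6, higher at day 42 in each of these, while the intervals overlapped in sub-cluster 1. Fn1 was higher at day 42 in sub-clusters 1, 2, 3 and 5 and lower in 6, at 1480.3 (1402 to 1562) and 1284 (1128 to 1457) CPM, where the intervals overlap. In sub-cluster 3 it stood at 2720.2 and 4138 CPM, where Postn stood at 4549.8 and 2756. Lox stood at 98 and 205 CPM in sub-cluster 2, at 73.9 and 491 in 5 and at 23.5 (14.6 to 35.9) and 47.8 (21.8 to 90.7) in 6, but at 63.5 (50.4 to 79) and 41.3 (11.2 to 106) in 3, from 4 UMIs at day 42. The intervals overlap in sub-clusters 3 and 6. Thbs1 at day 42 stood at 2796 (2436 to 3194) CPM in sub-cluster 11 and at 112, 299, 271 and 175 in sub-clusters 2, 3, 5 and 6. Over the cells of all 3 days together, Thbs1 in sub-clusters 2, 3, 5 and 6 stood at 28.5, 244, 67.9 and 147 CPM. Each of these is below its day 42 level, so the higher day 42 level was not in sub-cluster 11 alone. In sub-cluster 1 Thbs1 stood at 95.4 (75.4 to 119) CPM at day 0 and 157 (105 to 225) at day 7, and had 0 UMIs in its 33 cells at day 42, an interval of up to 65.5 CPM that is below the day 0 one.

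Some of the 34 genes stood outside fibroblasts above what free fibroblast RNA would give. A droplet can hold free fibroblast RNA, which carries fibroblast genes in a fixed ratio, so the CPM expected from such RNA was set from Col1a1, Col1a2 and Col3a1 in each cell type. A gene was counted as above fibroblast RNA in a cell type where it stood at 20 CPM or more and at 5 or more times that expectation in every library with at least 50 cells of the type, and in at least 2 libraries. By the authors' annotation 12 of the 34 genes did so: Bgn, Col15a1, Col18a1, Col4a1, Col4a2, Eln, Fbn1, Fn1, Loxl2, Nid1, Sparc and Thbs1. The share of all genes that meet this rule was not counted, so 12 is not read as many or few. There were 10 in endothelial cells and 10 in lymphatics, and Thbs1 was the 1 gene to do so in colonocytes, secretory colonocytes, macrophages and neutrophils. This rule accounts for free RNA from fibroblasts and not from other cells. Thbs1 was highest outside fibroblasts, so free RNA from secretory colonocytes, macrophages or neutrophils is not in its expected level, and its low levels in other types, such as colonocytes, are not read as made there. At 10 times the expectation Fn1 dropped out, which left 11.

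Blood endothelial cells (100, 312 and 122 at days 0, 7 and 42) carried basement membrane genes at levels that differed between days. Col4a1 stood at 1362 (1252 to 1478) CPM at day 0, 1341 (1295 to 1387) at day 7 and 290.1 (238 to 350.2) at day 42, so the first 2 libraries overlap and the last is far below. Col4a2 stood at 904, 685 and 212 CPM. Col15a1, with at most 1 UMI per library in lymphatics, stood at 429 (369 to 497), 901 (864 to 939) and 551 (478 to 631) CPM, highest at day 7. Col18a1 stood at 59.3 (38.4 to 87.5), 717 (684 to 752) and 255 (206 to 312) CPM, lowest at day 0. Sparc stood at 2427, 3013 and 1198 CPM, Bgn at 42.7, 447 and 384 CPM, Eln at 80.6, 240.5 and 236 CPM and Nid1 at 119, 219 and 126 CPM. Of the 34 genes, 15 reached the floor in endothelial cells at day 7 against day 0, with 7 past 2-fold higher (6.16% of all genes) and 2 lower (7.19%). At day 42 against day 0, 7 of 16 were higher (6.52% of all genes) and 3 lower (7.44%), and at day 42 against day 7, 4 of 16 were higher (3.39%) and 4 lower (3.37%). Of those higher than at day 0, Fn1 and Col5a2 on both days and Col1a2 and Dcn at day 42 did not meet this rule in these cells, nor did Col3a1 and Postn, which were lower at day 7. The endothelial markers summed to 6269, 5383 and 4816 CPM in these cells, and the keratinocyte list to 693, 1812 and 4134 CPM. The immune list summed to 14.2, 2697 and 303 CPM and the dissociation list to 16874, 5311 and 8106 CPM. The smooth muscle and pericyte list summed to 45.1, 118 and 94 CPM. The part of these lists in the values above was not tested.

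Lymphatics (63, 190 and 84 cells, with all 4 lymphatic markers detected on each day) went the other way for Col18a1, which stood at 871 (748 to 1009) CPM at day 0, 286 (249.5 to 326) at day 7 and 369 (284 to 471) at day 42. Col4a1 stood at 397 (315 to 493), 518 (469 to 571) and 380.2 (294 to 484) CPM, with overlap between days 0 and 42. Fn1 stood at 58.7 (30.4 to 103), 168 (140.2 to 199) and 311 (234 to 406) CPM, higher at each later day where fibroblasts had their low point at day 7. Nid1 stood at 113, 253 and 259 CPM, Loxl2 at 73.4, 83.8 and 138 CPM and Thbs1 at 53.8, 267 and 184 CPM. In lymphatics 7 of 16 genes were past 2-fold higher at day 7 against day 0 (6.96% of all genes) and 3 lower (5.45%), and 5 of 15 were higher at day 42 against day 0 (8.59%) and 3 lower (7.28%). At day 42 against day 7, 0 of 14 were higher (6.13%) and 2 lower (5.62%). Of those higher than at day 0, Dcn and Tnc on both days and Postn and Sparc at day 7 did not meet the rule above in lymphatics, nor did Col3a1 and Col5a3 among those lower. In these lymphatics the keratinocyte list summed to 2604, 1842 and 3185 CPM and the immune list to 9.79, 2491 and 248 CPM. The fibroblast list summed to 6109, 3289 and 3686 CPM and the blood endothelial list to 1894, 2631 and 2563 CPM. The dissociation list stood at 1890, 4644 and 2932 CPM and the lymphatic list at 23620, 37821 and 22971 CPM. The part of these lists in the values above was not tested.

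The same was done for the type IV genes. The ratio of Col4a1 to Col4a2 UMIs in fibroblasts was 1.72 (1.63 to 1.83), 2.20 (2.03 to 2.39) and 1.60 (1.37 to 1.86), in endothelial cells 1.51 (1.32 to 1.72), 1.96 (1.85 to 2.08) and 1.37 (1.01 to 1.85), and in lymphatics 1.76 (1.21 to 2.59), 1.67 (1.42 to 1.96) and 1.65 (1.10 to 2.51). It was highest at day 7 in fibroblasts and endothelial cells, and the lymphatic intervals overlap on all days.

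Outside fibroblasts Thbs1 was highest in macrophages at day 7. In the cells annotated as macrophages/APCS (91 at day 0, 278 at day 7, under 50 at day 42) it stood at 295 (244 to 354) and 3831 (3727 to 3938) CPM, so day 7 was 13 times (10.8 to 15.8) the day 0 level. Between those days the immune list in these cells summed to 31699 and 18311 CPM, the keratinocyte list to 99.1 and 976 CPM, the fibroblast list to 5428 and 2863 CPM and the dissociation list to 7471 and 4531 CPM, and their part in this was not tested. Neutrophils, present in number at days 7 and 42 only, stood at 719 (694 to 745) and 655 (572 to 748) CPM. Secretory colonocytes, which include the mucus-producing goblet cells, stood at 848 (818 to 879) CPM at day 0 and 285 (255 to 317) at day 42, and other colonocytes at 97.3, 21.3 and 49.6 CPM on the 3 days. In secretory colonocytes the dissociation list summed to 11343 and 7113 CPM and the keratinocyte list to 873 and 2950 CPM. In the other colonocytes the dissociation list summed to 9280, 5756 and 7431 CPM and the immune list to 29.5, 2106 and 224 CPM. Their part in these Thbs1 levels was not tested. Fn1 in macrophages stood at 330.3 (276 to 392) CPM at day 0 and 648 (605 to 692) at day 7. Of the 13 genes at the floor in macrophages, Thbs1 was the 1 past 2-fold higher at day 7 (5.49% of all genes), and 11 were lower (9.29%). Those 11, such as Dcn at 246 and 35.4 CPM, were genes that did not meet the rule above in macrophages.

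**Figure D5:**
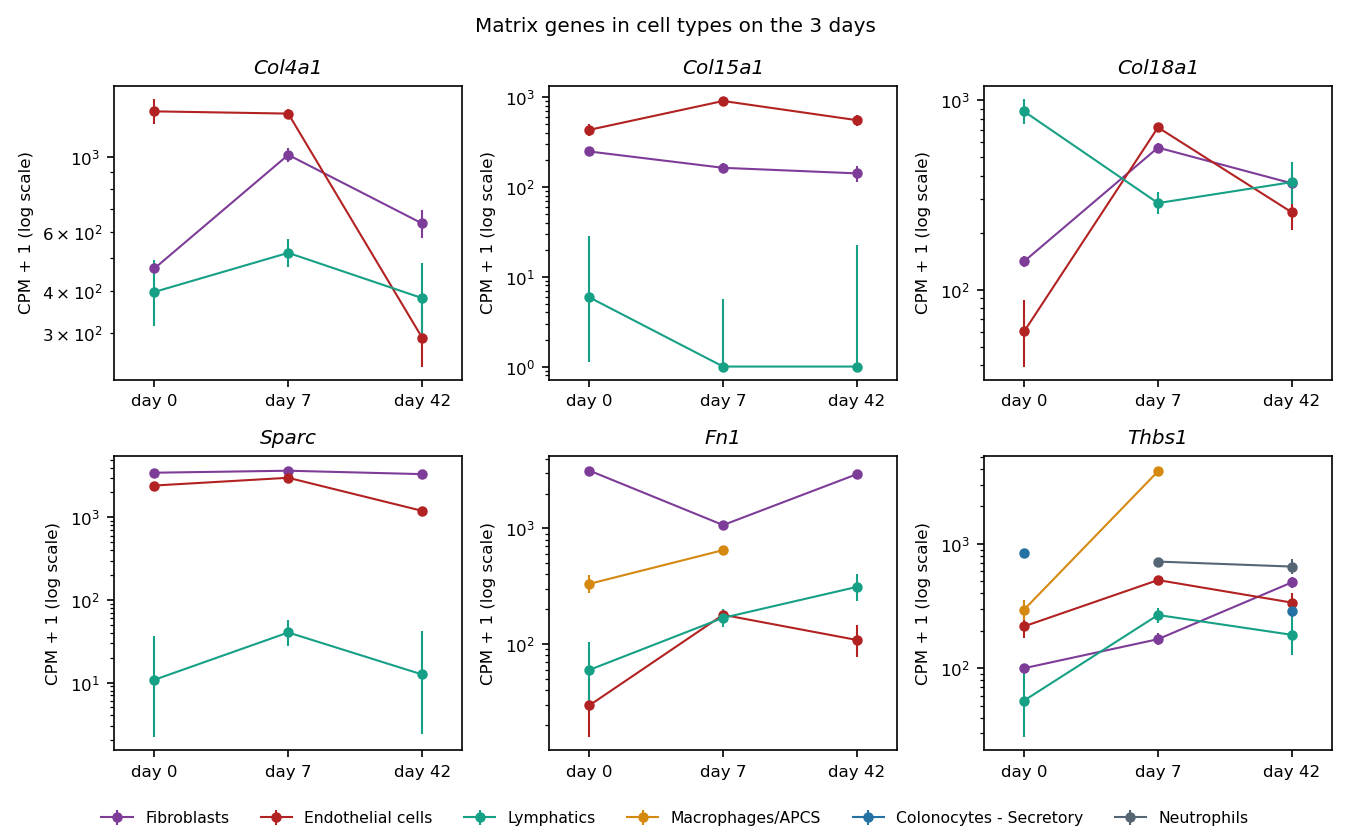
CPM plus 1 on log axes for Col4a1, Col15a1, Col18a1, Sparc, Fn1 and Thbs1 on the 3 days in cell types that carry them, with 95% Poisson intervals and points joined only between neighbouring days with at least 50 cells. Endothelial Col4a1 is low at day 42, Col18a1 at day 0 is the highest of the 3 days in lymphatics and the lowest in endothelial cells, and macrophage Thbs1 is the highest Thbs1 point.

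By the authors' clusters, which divide the keratinocytes, 19 of the 34 genes met that rule in at least 1 cluster other than fibroblasts. Here too the share of all genes was not counted. Among the 19 was Dcn, a gene with high levels in fibroblasts, in keratinocyte cluster 1. It stood there at 25 to 166 CPM, 8.1 to 15 times the expectation. Whether fibroblast RNA reached those cells in another ratio was not tested, so meeting the rule is not read as made there. Cluster 17 of the keratinocytes met it for 9 genes. It had Postn at 1772, 1087 and 1873 CPM on the 3 days, far above the 48.3, 2.38 and 6.82 CPM expected from free fibroblast RNA, and higher than fibroblasts at day 7. The same cluster had Col18a1 at 168, 173 and 186 CPM, Col12a1 at 92.6, 58.4 and 182 CPM, Tnc at 145, 109 and 39.9 CPM, Bgn at 140.2, 154 and 177 CPM and Thbs1 at 137, 92.3 and 168 CPM. Col18a1 there had overlapping values on all days, unlike in fibroblasts. Col7a1 was near even between days in the keratinocyte clusters that carried it, at 32.1, 33.8 and 26.1 CPM in cluster 1 and 39.6, 27.2 and 33.1 CPM in cluster 9. In cluster 14, which the authors left without a cell type, Col7a1 stood at 49.2, 21.1 and 55.1 CPM. Sparc stood at 118, 87 and 90.5 CPM in cluster 9 and 31.8, 46.9 and 25.6 CPM in cluster 1, and Thbs1 at low levels of 49.2, 46.8 and 38.6 CPM in cluster 9 and 42.2, 49.4 and 20.4 CPM in cluster 13, for which free RNA from other cells was not tested.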

How the data were processed

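The authors deposited 1 matrix of raw UMI counts that holds the cells of all 3 libraries, with Cell Ranger 3.0.2 and mm10 named in the submitters' processing notes, and a table of cells that gives each cell's day, cluster, cell type and size factor. That size factor is a ratio: in the deposited table every cell's total count divided by it is 5283.43, and it was not used for levels. Cells and labels were kept as the authors deposited them. Counts were summed per library and cell type and divided by the total (CPM), with exact Poisson intervals for levels, exact conditional intervals for ratios and Clopper-Pearson intervals for shares of cells. With 1 library per day no test was made. Depth per library was 89241138, 151886649 and 72258639 UMIs at days 0, 7 and 42. Fibroblasts were clustered again with scanpy 1.11.5 and leidenalg 0.10.2 (2000 variable genes, 20 components, 15 neighbours, resolution 0.5), and counting code was tested on simulated data. No doublet caller was run, and alternatives left out the 5% of cells with the largest share of UMIs from other cell types' markers, the cells richest in each gene, or sub-clusters 6, 10 and 12. The text describes all 34 genes, the 3 highest and 3 lowest log2 ratios among the other matrix, maturation and TGF-beta lists together at day 7 and at day 42 against day 0, and the 5 leading genes of sub-clusters. Pcolce2, Serpinh1 and the levels of single fibroblast markers were given after their values were seen. The genes and lists were chosen with earlier results of these data known. Coordinates are GENCODE M21 on GRCm38, matched by gene ID for 34 of 34 genes, and windows before starts are RefSeq's, found for 22 of 34. Scripts used scipy 1.17.1, numpy 2.4.6, pandas 2.3.3 and matplotlib 3.10.9 under Python 3.11.15.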

Additional observations from a re-analysis of the deposited data

Results flagged for a closer look

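For 3 of the genes, levels differed between days 0 and 7 or 42 in opposite directions in different cell types where they stood above what free fibroblast RNA would give. With 1 library per day, none of these differences between cell types was tested. The values below are differences between the log2 ratios of 2 cell types.

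Col18a1 was past 2-fold lower in lymphatics on both later days, with log2 ratios of -1.58 at day 7 and -1.22 at day 42. It was past 2-fold higher in endothelial cells, at 3.39 and 1.94, which is 4.97 and 3.15 above lymphatics. In fibroblasts it was higher at 1.93 and 1.31, which is 3.50 and 2.53 above lymphatics.

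Fn1 at day 7 had a log2 ratio of 1.37 in lymphatics and -1.56 in fibroblasts, 2.93 apart. The lymphatic level at day 0 was 58.7 CPM, from 63 cells, and Fn1 there did not reach 10 times the expectation in every library. With equal weight to sub-clusters the fibroblast value was -0.97.

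Thbs1 at day 7 had a log2 ratio of -1.78 in colonocytes, where it stood at 97.3 and 21.3 CPM at days 0 and 7, and free RNA from other cells in them was not tested. It was 1.20 in endothelial cells, 2.98 above colonocytes, then 2.12 in lymphatics, 3.89 above, and 3.66 in macrophages, 5.43 above. At day 42 Thbs1 had a log2 ratio of -1.54 in secretory colonocytes, and it was 2.20 in fibroblasts and 1.61 in lymphatics, 3.74 and 3.15 above.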

How the results depend on the processing

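No paired analysis was possible because each day has 1 library. Over 1122 values of single genes in fibroblasts under the alternatives, 767 stayed within the counting interval of the reported value. Of all 1122, 99 had the other sign, in 28 of the 34 genes, and 29 of these came with equal weight to sub-clusters. Most were ratios under 2-fold: 96 of 935 values of such ratios and 3 of 187 values of ratios past 2-fold. The 3 were Col7a1 at day 42 against day 0, at -0.53 with equal weight to sub-clusters and -0.42 without its 10 richest cells, and Thbs1 at day 42 against day 7, at -1.21 with equal weight to sub-clusters. Of the 17 ratios past 2-fold, 11 were under it or of the other sign in at least 1 alternative, and 15 of the 85 others passed it in at least 1. Equal weight used the 4, 5 and 2 sub-clusters that had 20 cells or more in each library compared, so it also left cells out. These were 1, 6, 9 and 10 for day 7 against day 0, and 1, 2, 3, 5 and 6 for day 42 against day 0. For day 42 against day 7 they were 1 and 6. Equal weight thus left out sub-clusters 7 and 11. It gave sub-clusters 6 and 10, led by keratinocyte and colonocyte genes, the same weight as the others used. With it, at day 7 against day 0, 5 of the 34 genes were past 2-fold higher (4.38% of all genes) and 3 lower (3.17%). At day 42 against day 0, 2 were higher (1.15%) and 0 lower (1.39%). Against day 7, 2 were higher (7.32%) and 5 lower (5.88%) at day 42, with a median of -0.20. With the mean of CPM per cell the median was -0.20 for day 7 over day 0 and 0.26 for day 42 over day 7, and 0 genes were lower at day 42 against day 0 (1.64% of all genes) or day 7 (4.27%). With cells thinned to 1000 UMIs the median was -0.16 for day 7 over day 0 and 0.20 for day 42 over day 7, where 0 were lower (7.78% of all genes). At day 42 against day 0, 2 genes were lower with median-of-ratios size factors (1.55% of all genes), and 0 without sub-clusters 6, 10 and 12 (1.44%). In the same comparison, 2 genes were higher (0.579% of all genes) and 7 lower (16.6%) without the 10 cells with most UMIs of each gene, which are a larger share of the fibroblasts at day 42 than at day 0, and 5 were lower (8.97%) without the 5% with most. Both of these counts were chosen after seeing the data. The causes were not tested. A low number of fibroblasts at days 7 and 42 and the lack of replicates limit these comparisons: counting intervals do not cover differences between mice.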
